A study of Mus musculus with 12 samples.

Results

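The genes described here are 9 very long mouse genes for neuronal adhesion and cell-surface proteins: Csmd1, Csmd3, Nrxn3, Nlgn1, Lrp1b, Cntnap2, Cntnap5a, Cdh4 and Dscam. The data are ATAC-seq peaks, that is, regions where chromatin was open enough for the Tn5 transposase to cut. A peak was counted as a member when the submitters' annotation gave one of the 9 genes as its nearest gene, which selected 359 of 281974 peaks in 3 peak tables. Of these, 25 were in the microglia table, 234 in the NeuN+ table and 100 in the Olig2+ table. The genes span 457 kb (Cdh4) to 2241 kb (Cntnap2) in the RefSeq annotation, and most member peaks were intronic: 17 of 25, 180 of 234 and 75 of 100 in the same order of tables.

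Neurexins such as the Nrxn3 product sit on presynaptic terminals and bind neuroligins, such as the Nlgn1 product, on the postsynaptic side, and this pairing helps to organise synapses. The contactin-associated proteins encoded by Cntnap2 and Cntnap5a belong to the neurexin superfamily, and CASPR2, the Cntnap2 product, works with contactin-2 to cluster potassium channels along myelinated axons. The CSMD proteins carry CUB and sushi domains like those of complement regulators, LRP1B is a large endocytic receptor for lipoproteins and other ligands, cadherin-4 is a calcium-dependent adhesion protein, and DSCAM is an immunoglobulin-type adhesion protein of neurites. In such genes the introns hold most of the length, and distal regulatory elements commonly lie within them.

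The series compared wild-type (WT) mice with mice labelled SgshKO at 4 months of age, both on the C57BL/6 strain. Sgsh encodes sulfamidase, a lysosomal enzyme that degrades heparan sulfate, and its loss is the cause of Sanfilippo syndrome type A. The labels do not give the allele, and none of the groups carries another stated allele or treatment. Forebrain tissue was sorted into live microglia (CD11b+, CD45 low, CX3CR1+), NeuN+ nuclei negative for PU.1 and OLIG2, and Olig2+ nuclei negative for PU.1 and NEUN, and the nuclei, unlike the microglia, were lightly fixed with formaldehyde. Each of the 6 groups had 2 libraries, which the labels do not describe as separate animals, so p-values here measure the spread between these libraries, which may be technical.

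Promoter sequences are shown for 3 start sites at which the reads bear directly on a member. The first is an internal Nlgn1 start site whose peak fell in Olig2+ nuclei, the second an internal Nrxn3 start site with the strongest promoter signal of that gene in NeuN+ nuclei, and the third the Cntnap2 start site, whose peak did not pass the test. Each is the 250 bases before the start site from RefSeq (GRCm38.p6, the assembly named mm10), written 5′ to 3′ on the gene's strand, with the bases under the peak in capitals. RefSeq promoter entries were matched for 4 of the 9 genes.
Nlgn1 (minus strand, chr3:26153987-26154236, Olig2+ peak): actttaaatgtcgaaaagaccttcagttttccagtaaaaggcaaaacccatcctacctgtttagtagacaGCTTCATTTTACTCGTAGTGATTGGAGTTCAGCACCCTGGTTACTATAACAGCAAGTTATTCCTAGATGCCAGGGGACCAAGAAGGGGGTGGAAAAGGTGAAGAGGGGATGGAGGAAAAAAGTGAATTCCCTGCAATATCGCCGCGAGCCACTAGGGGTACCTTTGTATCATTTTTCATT
Nrxn3 (plus strand, chr12:89812233-89812482, NeuN+ peak): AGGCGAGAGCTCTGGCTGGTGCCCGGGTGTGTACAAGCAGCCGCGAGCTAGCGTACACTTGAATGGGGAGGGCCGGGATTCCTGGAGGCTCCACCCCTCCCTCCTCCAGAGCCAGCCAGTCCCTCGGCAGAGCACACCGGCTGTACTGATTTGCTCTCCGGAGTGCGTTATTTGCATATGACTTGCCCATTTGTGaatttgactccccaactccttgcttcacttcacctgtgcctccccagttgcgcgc
Cntnap2 (plus strand, chr6:45059811-45060060, NeuN+ peak): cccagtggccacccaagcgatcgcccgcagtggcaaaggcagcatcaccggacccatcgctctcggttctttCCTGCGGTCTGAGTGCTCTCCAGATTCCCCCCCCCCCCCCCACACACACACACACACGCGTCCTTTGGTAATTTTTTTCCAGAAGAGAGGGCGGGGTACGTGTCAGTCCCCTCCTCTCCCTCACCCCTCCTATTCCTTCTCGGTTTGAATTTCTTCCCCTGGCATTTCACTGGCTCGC

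These promoters differed in base composition. The Nlgn1 stretch held 43.6% G or C and 5 CpG pairs, the Nrxn3 stretch 60% and 12, and the Cntnap2 stretch 59.6% and 13, against medians of 52.4% and 6 over all 32851 RefSeq promoter stretches of the same length. A search on both strands for GGGCGG (a GC box, held by 32.7% of all these stretches) found 1 match, in the Cntnap2 stretch. No match to CACGTG (6.02% of all stretches), CAGCTG (13.0%), TGACTCA (4.46%) or TGACGTCA (1.55%) was found in the 8 entries of the 4 genes.

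Libraries held 10771659 to 11804222 tags in microglia, 14326703 to 17706971 in NeuN+ nuclei and 15044194 to 19555924 in Olig2+ nuclei, per the tag totals in the column headers. Values below are normalized tags, that is, tags in a peak per 10000000 tags in the library. The share of tags inside peaks was 48.7% to 67.4% in microglia, 25.9% and 26.7% in the WT and 21.2% and 21.5% in the SgshKO NeuN+ libraries, and 30.9% to 31.8% in Olig2+ nuclei. At start sites, defining genes matched the sorts: 7 of 8 microglial markers had a peak in microglia (Aif1 had none), and all 8 neuronal markers in NeuN+ nuclei and all 8 oligodendrocyte markers in Olig2+ nuclei had one. In microglia, 6 of the 8 neuronal markers, among them Rbfox3 and Snap25, had no start-site peak.

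In NeuN+ nuclei, most members had more open chromatin in SgshKO than in WT. With tags summed over all peaks of a gene, 6 of 9 members rose (Cntnap5a, Cntnap2, Csmd3, Nlgn1, Csmd1 and Nrxn3) and none fell, while 59.2% of all 18730 genes were called, 10.5% higher and 48.7% lower. The median over the 9 members was 0.29 on the log2 scale, and over all genes it was -0.30. Tests were limma's moderated test on log2(normalized tags + 1), with Benjamini-Hochberg adjustment over the whole table, and a peak or gene was called at an adjusted p under 0.05. In a sorted pool, a larger share of cells with an open region and more cutting per cell cannot be told apart.

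Cntnap5a, which encodes a contactin-associated protein, had the largest change on summed tags among the members in NeuN+ nuclei. Its summed tags were 126 and 133 in the WT libraries and 251 and 232 in the SgshKO libraries. The groups did not overlap, and the change was 0.89 on the log2 scale (SE 0.09, adjusted p = 2.93e-09, limma). All 7 of its called peaks, of 16, rose. The one with the smallest p lies in intron 10 of 23, at chr1:116192291-116192678, with 13.0 and 13.0 normalized tags in WT and 55.1 and 40.6 in SgshKO (log2 change 1.79, SE 0.22, adjusted p = 2.27e-05, limma). Its start-site peak at chr1:115684539-115684772 gave 11.3 and 12.4 in WT and 8.38 and 8.25 in SgshKO, which did not pass the test (adjusted p = 0.242, limma).

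Cntnap2 rose from 313 and 309.5 summed tags in WT to 419.5 and 447 in SgshKO (log2 change 0.48, SE 0.07, adjusted p = 5.19e-07, limma). Of its 25 peaks, 12 rose and 1 fell. The called peak with the smallest p among those that rose is intergenic, at -348800 bases from the start site, at chr6:44711112-44711411, with 2.27 and 3.39 normalized tags in WT and 16.1 and 15.2 in SgshKO (log2 change 2.13). Its WT tags are so few that its rise follows in part from how peaks were selected. The one that fell lies at the promoter, at chr6:45059527-45059781, with 69.1 and 55.4 in WT and 35.6 and 35.6 in SgshKO (log2 change -0.78, SE 0.17, adjusted p = 0.00294, limma), a call lost with quantile normalization (0.0838), DESeq2 (0.264) or without WT library 1 (0.0981). The neighbouring peak over the start site shown above gave 46.5 and 49.7 in WT and 48.9 and 62.2 in SgshKO, and was called higher only with in-peak scaling (adjusted p = 0.388, and 0.0331 with that scaling, limma).

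The synaptic pair moved the same way in this sort. Nrxn3 had the highest summed signal, 989 and 958 in WT and 1172 and 1179 in SgshKO, with no overlap between the groups (log2 change 0.27, SE 0.04, adjusted p = 3.4e-06, limma). Of its 60 peaks, 17 rose and 5 fell. A peak in intron 14 of 19, at chr12:89724106-89724343, rose from 12.5 and 7.91 to 30.7 and 45.7 (log2 change 1.81). The internal promoter peak shown above went the other way, from 86.1 and 76.2 in WT to 57.2 and 62.2 in SgshKO (log2 change -0.43, SE 0.14, adjusted p = 0.0299, limma), a call lost under in-peak (0.493) and median-of-ratios scaling (0.26), edgeR (0.256), DESeq2 (0.697) and without any 1 library, while its change under quantile normalization was 0.03 (0.876). Nlgn1 rose from 217.5 and 229.8 to 306 and 288 (log2 change 0.41, adjusted p = 4.85e-05, limma), with 7 peaks called higher and 1 lower of 19.

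The CSMD genes rose on their summed tags too. Csmd3 went from 122 and 132 in WT to 181.5 and 170.2 in SgshKO (log2 change 0.47, SE 0.10, adjusted p = 0.000146, limma), and all 4 of its called peaks, of 12, rose. Csmd1 went from 653 and 629.7 to 772 and 793 (log2 change 0.29, SE 0.05, adjusted p = 1.71e-05, limma), with 14 peaks higher and 5 lower of 51. Within Csmd1 the start site and the distal peaks parted. The start-site peak at chr8:17535214-17535443 fell from 87.8 and 77.9 to 45.4 and 45.7 (log2 change -0.85, SE 0.15, adjusted p = 0.000523, limma), a call lost with quantile normalization (0.0586) and DESeq2 (0.115). An intergenic peak at -63497 bases from the start site, chr8:17598770-17598994, rose from 2.27 and 1.13 to 20.2 and 18.4 (log2 change 2.94, SE 0.36, adjusted p = 1.73e-05, limma). With so few WT tags, the direction and p-value of this peak follow in part from how peaks were selected.

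The remaining 3 genes did not pass the test on summed tags in NeuN+ nuclei. Lrp1b gave 72.5 and 84.2 in WT and 79.6 and 98.4 in SgshKO, with overlapping groups (log2 change 0.18, adjusted p = 0.253, limma), and was called higher under in-peak (0.47, adjusted p = 0.00283), median-of-ratios and quantile scaling and with edgeR. Cdh4 gave 266 and 242 against 248.5 and 212 (log2 change -0.14, adjusted p = 0.142), and Dscam 394 and 431 against 404 and 391 (log2 change -0.05, adjusted p = 0.509). The signs of Cdh4 and Dscam turned under scalings that equalise in-peak signal: with quantile normalization they were 0.19 and 0.28, and Dscam was then called higher (adjusted p = 0.00124, limma). Start-site peaks of these genes were lower or not called: Cdh4's at chr2:179442140-179442488 fell from 44.8 and 42.9 to 26.5 and 26.7 (log2 change -0.70, adjusted p = 0.0102, limma), and Dscam's in the 5′ UTR at chr16:97170112-97170564 fell from 40.8 and 39.0 to 31.4 and 19.7 (log2 change -0.66, adjusted p = 0.0323, limma). Both of these start-site calls were lost under in-peak, median-of-ratios and quantile scaling, with edgeR and DESeq2 (adjusted p from 0.0576 to 0.589), and without any 1 library.

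Peak by peak, 83 of the 234 member peaks in NeuN+ nuclei were called, 65 higher and 18 lower, where 29.8% of all peaks were called, 10.2% higher and 19.6% lower. The median change was 0.40 over the member peaks and -0.23 over all peaks. Start sites and distal peaks differed in their counts: of the 213 member peaks over 1000 bases from a start site, 65 were higher and 13 lower (median 0.44), and of the 21 within 1000 bases, none was higher and 5 (23.8%) were lower (median -0.49). In the whole table, 12.6% of distal peaks were higher and 12.6% lower (median -0.11), and 1.74% of start-site peaks were higher and 44.9% lower (median -0.53). Another 96 peaks lay inside the member genes' spans with a different gene nearest, and 26 of these were higher and 9 lower. They lay in Csmd1 (42 of 87 peaks in the span), Cdh4 (20 of 34), Dscam (18 of 43), Lrp1b (13 of 16) and Nlgn1 (3 of 19). The summed tags of these genes leave them out.

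**Figure D1:**
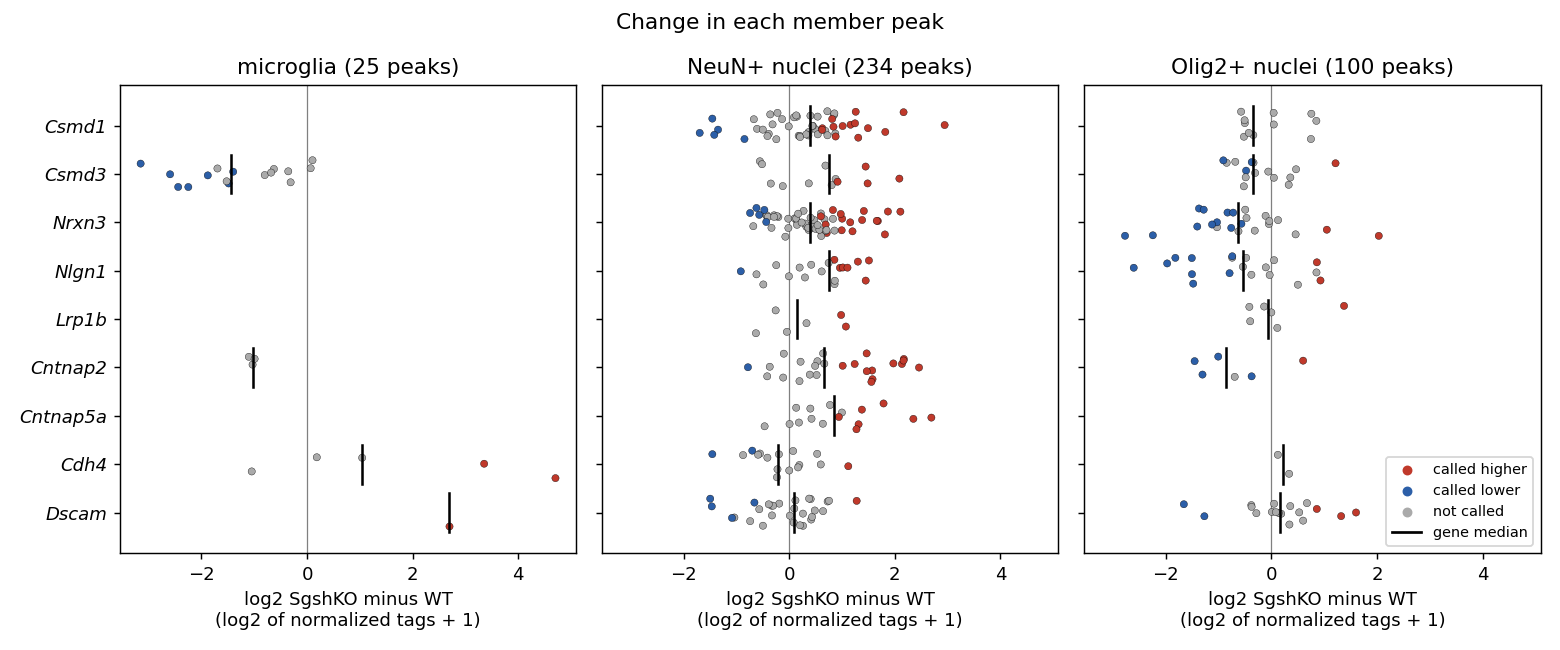
Change of every member peak (horizontal axis, log2 SgshKO minus WT of normalized tags + 1) by gene, in microglia, NeuN+ nuclei and Olig2+ nuclei; red and blue points were called higher and lower, grey points were not called, and black bars are gene medians. Of 234 peaks in NeuN+ nuclei 65 were called higher, whereas of 100 peaks in Olig2+ nuclei 28 were called lower.

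The pattern was not limited to the 9 genes. Among distal peaks nearest 207 other protein-coding genes over 500 kb with a distal peak, 24.4% were higher and 6.74% lower in NeuN+ nuclei (median 0.27), beside 30.5% and 6.10% for the distal member peaks. With members left out, the share of distal peaks called higher was 8.36% for nearest genes of 0 to 10 kb, 11.7% for 30 to 100 kb, 22.99% for 500 to 1000 kb and 28.3% for genes over 1000 kb, and the share called lower went from 16.7% to 4.67% between the first and the last class. Division of the distal member peaks at the table's median signal gave 27 higher and 6 lower of 95 strong peaks, and 38 higher and 7 lower of 118 weak ones. Over all distal peaks, 11.8% of the strong ones were higher and 15.1% lower, and 13.2% and 10.7% of the weak ones. No test was made of the difference between members and other long genes.

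**Figure D2:**
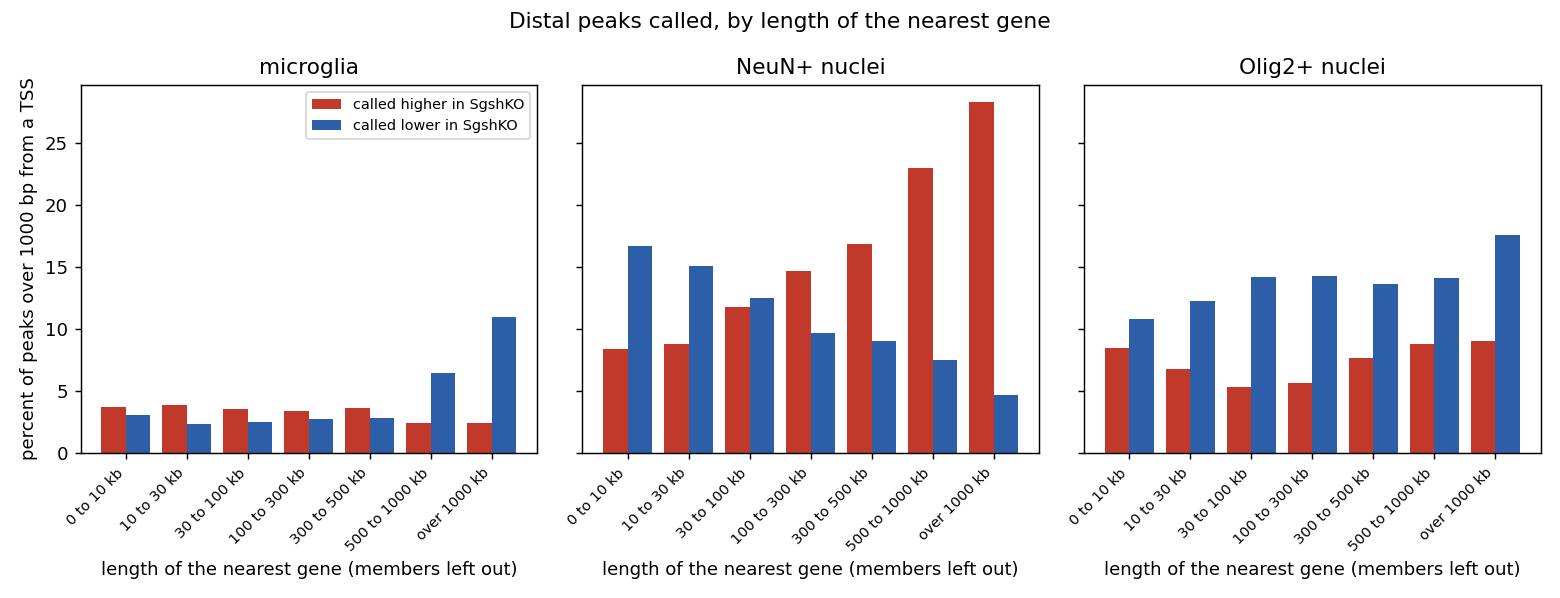
Percent of peaks over 1000 bases from a start site that were called higher (red bars) or lower (blue bars) in SgshKO, by length of the nearest gene in kb, in the 3 sorts, with the 9 member genes left out. In NeuN+ nuclei the bars for higher peaks go from 8.36% in the shortest class to 28.3% in the longest.

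Other measures moved with genotype in these NeuN+ libraries. The summed start-site signal of the 8 neuronal markers was 848 and 773 in WT and 441 and 472 in SgshKO, and the share of tags in peaks was lower in both SgshKO libraries; the part of these in the member results was not tested. Start-site signal was lower, too, for the 3 oligodendrocyte markers with a peak in this table (144 and 128 against 68.4 and 69.8), while 5 of 8, among them Mog and Sox10, had no start-site peak. It was lower without overlap for the markers with a peak in each other list as well: precursors (99.7 and 85.9 against 34.2 and 41.9), astrocytes (199 and 184 against 130.5 and 133), microglia (54.4 and 48 against 34.2 and 32.4) and blood myeloid cells (35.1 and 32.8 against 9.77 and 8.89). The calls of the 6 genes that rose on summed tags were kept under each scaling, test and left-out library tried. The peak count was not: without either SgshKO library no peak of the whole table was called at an adjusted p under 0.05 (limma), member peaks included, with 74 and 68 member peaks at an unadjusted p under 0.05, and it was 34 and 46 without WT library 1 and 2 and 21, all higher, with DESeq2. Calls fell over the whole table as well without either WT library, and with DESeq2 to 2.48% of all peaks higher and 2.07% lower. Member calls were 78.3% higher in the main analysis and 91.2% with in-peak scaling, 88.5% with median-of-ratios scaling, 91.0% with quantile normalization and 89.1% with edgeR, while the whole table moved from 11008 higher and 21097 lower to 18962 and 9534 under in-peak scaling.

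**Figure D3:**
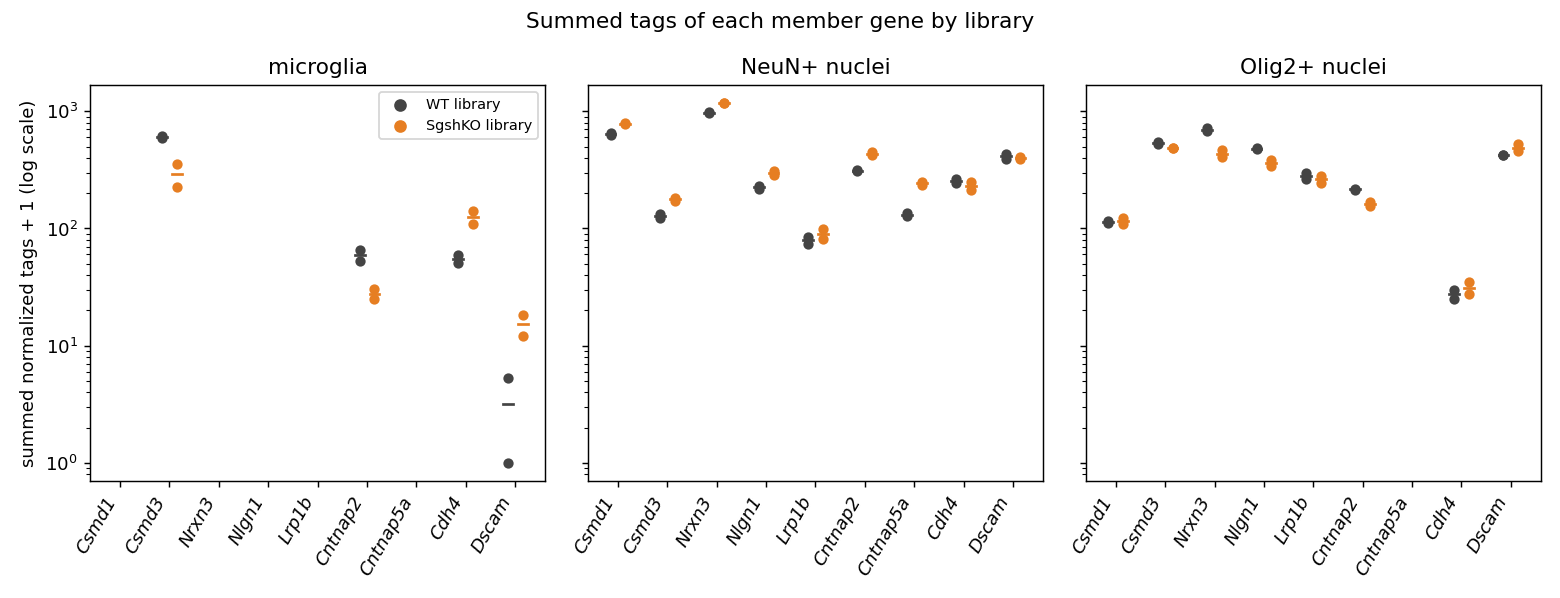
Normalized tags summed over the peaks of each member gene, plus 1 (log axis), in each library of the 3 sorts; points are libraries, bars are means of 2, dark grey is WT and orange SgshKO, and a gene with no peak has no point. Cntnap5a in NeuN+ nuclei went from 126 and 133 to 251 and 232, and Nrxn3 in Olig2+ nuclei from 716 and 679 to 404 and 467.

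In Olig2+ nuclei, oligodendrocyte-lineage nuclei by their sort, Nrxn3 and Nlgn1 were less open in SgshKO. Cntnap2 also had lower summed tags, but from peaks beyond the gene, while its only peak inside the gene rose. On summed tags 4 of the 8 members with a peak fell (Nrxn3, Nlgn1, Cntnap2 and Csmd3) and 1 rose (Dscam), while 34.8% of all 16194 genes were called, 15.9% higher and 18.9% lower. The median over the 8 genes was -0.12 and over all genes -0.03. Cntnap5a had no peak in this table. Over single peaks, 38 of 100 were called, 10 higher and 28 lower, where 19.8% of all peaks were called, 8.17% higher and 11.7% lower, and the median change was -0.36 against -0.07 in the whole table. Another 50 peaks lay inside the member genes' spans with a different gene nearest, and 5 of these were higher and 6 lower. Over all 136 peaks inside the spans the median was -0.18. With the lowest 25% of peaks left out, 9 of 70 member peaks were higher and 15 lower, beside 9.17% and 12.4% of all. Their median was then -0.11, against -0.04 over all remaining peaks.

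Nrxn3 gave 716 and 679 summed tags in WT and 404 and 467 in SgshKO. The groups did not overlap, and the change was -0.68 on the log2 scale (SE 0.06, adjusted p = 8.4e-11, limma). Of its 23 peaks, 11 fell and 2 rose. Its called peak with the smallest p, in intron 2 of 19 at chr12:89180340-89180542, fell from 170.1 and 164 to 68.3 and 57.2 (log2 change -1.40, SE 0.13, adjusted p = 2.87e-09, limma). In the same intron, the peak at chr12:89159481-89159711, singled out after its values were seen, fell from 31.6 and 31.7 to 4.30 and 3.32 (log2 change -2.77, SE 0.30, adjusted p = 9.08e-08, limma). One peak in intron 18 of 19, at chr12:90220024-90220325, rose from 3.63 and 2.56 to 14.1 and 17.3 (log2 change 2.03, SE 0.35, adjusted p = 0.000119, limma). Few WT tags lie in this peak, so its rise may follow in part from how peaks were selected. At the internal promoter shown above, Olig2+ nuclei gave 12.5 and 13.8 in WT and 10.4 and 14.0 in SgshKO (adjusted p = 0.826, limma).

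Nlgn1 fell from 471.5 and 484 to 338 and 384 (log2 change -0.41, SE 0.07, adjusted p = 1.23e-05, limma), with 8 peaks lower and 2 higher of 19. The internal promoter peak whose bases are shown above, at chr3:26153965-26154166, fell from 14.0 and 10.7 to 1.84 and 3.99 (log2 change -1.82, SE 0.38, adjusted p = 0.00106, limma), a call lost without WT library 1 (adjusted p = 0.107). The 5′ UTR peak of the longer transcript, at chr3:26331419-26331640, gave 7.26 and 9.20 in WT and 6.15 and 5.98 in SgshKO and was not called (adjusted p = 0.468, limma). The called peak with the smallest p among those that fell was in intron 4 of 6, at chr3:25731985-25732227, with 46.7 and 38.9 in WT and 11.1 and 18.6 in SgshKO (log2 change -1.503, SE 0.24, adjusted p = 5.07e-05, limma). In intron 3 of 7, the peak at chr3:25977998-25978249 rose from 17.1 and 18.4 to 28.9 and 37.9 (log2 change 0.86, adjusted p = 0.0089, limma), a call lost with DESeq2 (0.0888) or without WT library 1 (0.0775) or SgshKO library 2 (0.0945).

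Cntnap2 had 6 peaks. The 5 annotated as intergenic lie beyond the 3′ end of the gene, and 4 of them fell. The 1 peak inside the gene, in intron 22 of 23 at chr6:47275126-47275400, rose from 25.9 and 32.7 to 43.7 and 45.9 (log2 change 0.60, SE 0.20, adjusted p = 0.0295, limma). That call was lost with DESeq2 (adjusted p = 0.18) and without either WT library or SgshKO library 2. Its summed tags fell from 216 and 212 to 155 and 167.5 (log2 change -0.41, SE 0.09, adjusted p = 0.000688, limma). The called peak with the smallest p, at chr6:47318928-47319129 and beyond the 3′ end of the annotated gene, fell from 39.9 and 41.4 to 13.5 and 18.6 (log2 change -1.30, SE 0.23, adjusted p = 0.000142, limma). Csmd3 passed narrowly, with 529 and 551 in WT and 486 and 489 in SgshKO (log2 change -0.15, SE 0.06, adjusted p = 0.048, limma). That call was lost without any 1 of the 4 libraries and on distal peaks alone (adjusted p = 0.105, limma), and under in-peak scaling (0.0683), median-of-ratios scaling (0.0933), edgeR (0.0841) and DESeq2 (0.373).

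Dscam was the member that rose on summed tags in Olig2+ nuclei, from 426 and 422 to 454 and 524.5 (log2 change 0.20, SE 0.07, adjusted p = 0.0158, limma). Of its 18 peaks, 3 rose and 2 fell. An intergenic peak at -26079 bases from the start site, chr16:97196705-97196923, rose from 6.74 and 6.14 to 18.4 and 25.3 (log2 change 1.604, SE 0.30, adjusted p = 0.000332, limma), and an exonic peak at chr16:96819691-96820041 fell from 25.9 and 29.1 to 13.5 and 8.64 (log2 change -1.27, SE 0.27, adjusted p = 0.00125, limma; 0.0668 with DESeq2). Csmd1, Lrp1b and Cdh4 did not pass the test on summed tags, with log2 changes of 0.01, -0.09 and 0.17. Lrp1b held the member peak with the highest mean signal of the sort, in intron 1 at chr2:42624432-42624670, which gave 174 and 215 in WT and 167 and 185 in SgshKO (adjusted p = 0.366, limma).

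In these libraries oligodendrocyte markers at start sites gave 3178 and 3148 in WT and 2516 and 2507 in SgshKO, and the 5 markers of their precursors 293 and 294.5 in WT and 345.5 and 339.7 in the mutant libraries; the part of this in the member results was not tested. The 4 of 8 neuronal markers with a peak gave 160 and 170.3 in WT and 169 and 159 in SgshKO, which overlap, and Rbfox3, Gad2, Slc17a7 and Stmn2 had no start-site peak. The 2 of 8 microglial markers with a peak gave 240.2 and 233 in WT and 271 and 284 in SgshKO, and the 1 of 7 astrocyte markers 9.34 and 8.18 against 6.15 and 5.98, both without overlap. The calls of Nrxn3, Nlgn1 and Cntnap2 on summed tags were kept under each alternative tried. The Dscam call was lost with DESeq2 (adjusted p = 0.0637) and on distal peaks alone (adjusted p = 0.345, limma). It was lost too without WT library 1 (log2 change 0.21), WT library 2 (0.197) or SgshKO library 2 (0.1). The peak count was lower without WT library 1 or 2, as it was over the whole table. It was 8 with DESeq2, where 2.585% of all peaks were higher and 1.68% lower. Quantile normalization made 36.7% of member calls higher in place of 26.3%, with 8.909% of all peaks higher and 7.835% lower.

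**Figure D4:**
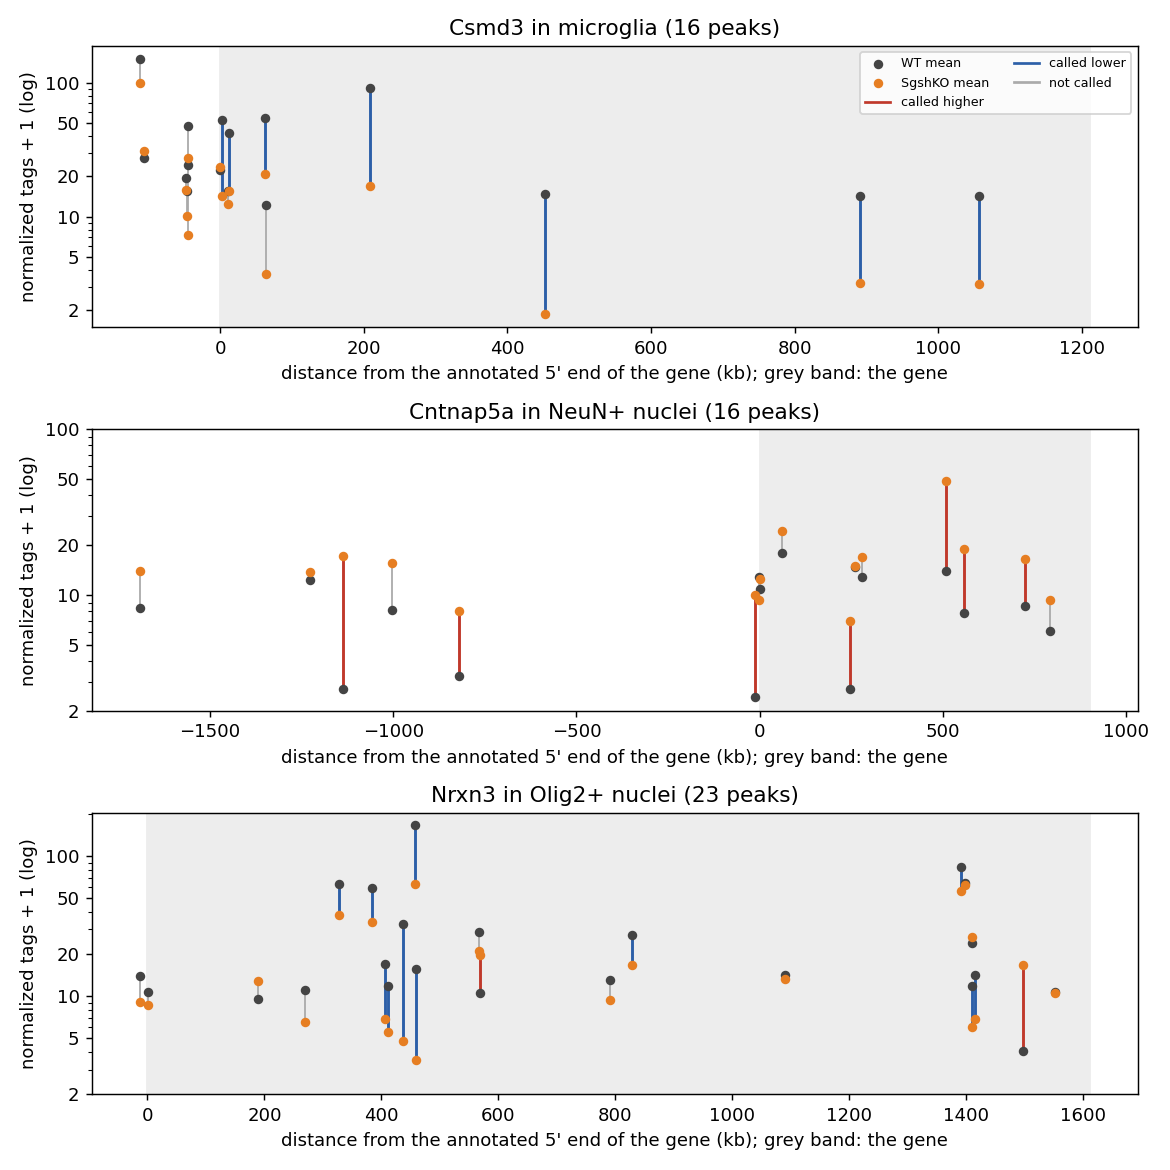
Mean normalized tags + 1 (log axis) in WT (dark grey points) and SgshKO (orange points) for each peak of Csmd3 in microglia, Cntnap5a in NeuN+ nuclei and Nrxn3 in Olig2+ nuclei, by distance in kb from the annotated 5′ end of the gene; coloured lines join the 2 means of called peaks and the grey band is the gene. In Csmd3 the 7 called peaks all fell, in Cntnap5a the 7 called peaks all rose, and in Nrxn3 11 fell and 2 rose.

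In microglia, only Csmd3, Cdh4, Cntnap2 and Dscam had peaks, and 5 members had none. Csmd3 intronic peaks fell in SgshKO, while intronic peaks of Cdh4 and Dscam that were near zero in WT rose. Peaks with almost no WT reads can hardly have entered the peak set except through SgshKO libraries. Their rise therefore follows in part from how peaks were selected. Of the 25 peaks, 10 were called, 3 higher and 7 lower, where 7.37% of all peaks were called, 5.05% higher and 2.33% lower. The median change was -0.99 over member peaks and -0.08 over all. With members left out, distal peaks of genes over 1000 kb were called lower in 11.0% of 82 cases and higher in 2.44%, against 2.69% and 3.81% of all distal peaks.

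All 7 peaks that fell belong to Csmd3 and lie in its introns. The peak in intron 3 of 70, at chr15:48583965-48584172, fell from 72.6 and 108 to 19.9 and 12.1 (log2 change -2.44, SE 0.39, adjusted p = 5.47e-05, limma). A peak deep in the gene, in intron 6 at chr15:48339584-48339804 and singled out after its values were seen, fell from 13.8 and 13.6 to 1.73 and 0.00 (log2 change -3.15, SE 0.58, adjusted p = 0.000422, limma). The promoter peak at chr15:48792778-48793055 gave 26.8 and 16.1 in WT and 21.6 and 23.2 in SgshKO, overlapping values (adjusted p = 0.921, limma). The strongest Csmd3 peak, intergenic at chr15:48904769-48904999, gave 162 and 138 in WT and 134 and 64.1 in SgshKO and was not called either (adjusted p = 0.198, limma), though it was with in-peak scaling (0.0262), quantile normalization (0.0211) and without SgshKO library 1 (0.000412). On summed tags Csmd3 fell from 618 and 589.6 to 357 and 226 (log2 change -1.09, SE 0.27, adjusted p = 0.00177, limma), where 9.12% of all 17123 genes were called, 8.08% higher and 1.05% lower. On distal peaks alone the Csmd3 change was -1.16 and narrowly missed the threshold (adjusted p = 0.052, limma).

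Cdh4 opened in intron 2 of 5. One peak there, at chr2:179662441-179662652, had no tag in either WT library and 23.4 and 26.9 normalized tags in SgshKO (adjusted p = 4.22e-07, limma), at least 9.80-fold higher when each WT library is set to 3 reads. A second, at chr2:179649451-179649722, singled out after its values were seen, rose from 2.59 and 4.24 to 49.4 and 38.1 (log2 change 3.35, SE 0.48, adjusted p = 1.19e-05, limma). The Cdh4 start-site peak, at chr2:179442282-179442502, gave 26.8 and 33.9 in WT and 42.4 and 27.9 in SgshKO and was not called (adjusted p = 0.834, limma). Cdh4 summed tags rose from 50.1 and 58.5 to 139 and 108 (log2 change 1.16, SE 0.33, adjusted p = 0.00971, limma). This sum includes the 2 peaks with almost no WT tags, the only ones called of the gene's 5. Its rise therefore also follows in part from how peaks were selected, and is not separate support for theirs.

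Dscam had 1 microglial peak, in intron 1 of 32 at chr16:97136881-97137108, which rose from 4.32 and 0.00 to 17.3 and 11.1 (log2 change 2.69, SE 0.61, adjusted p = 0.00416, limma; 0.703 without WT library 2). The 3 Cntnap2 peaks, in intron 20 of 23, were lower in both SgshKO libraries but none was called. Their summed tags went from 64.8 and 51.7 to 29.4 and 24.1 (log2 change -1.09, adjusted p = 0.0526, limma), and that change passed the test under in-peak, median-of-ratios and quantile scaling and with edgeR (adjusted p = 0.01) and DESeq2 (adjusted p = 0.035). Counts behind these peaks are small, with a median of 12 to 22 reads per member peak and library.

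Among other cell types, the 1 of 5 oligodendrocyte-precursor markers with a start-site peak in microglia gave 108 and 78.8 in WT and 52.0 and 48.3 in SgshKO, and Cspg4, Gpr17 and Neu4 had none. The 4 of 8 oligodendrocyte markers with a peak gave 296 and 270.2 in WT and 374 and 322 in SgshKO, without overlap, with none at Mag, Mobp or Sox10. The 2 of 6 blood myeloid markers with a peak gave 167 and 128 in WT and 203 and 200.5 in SgshKO, with none at Ccr2, Ly6c2, Plac8 or S100a9. The part of these in the Csmd3, Cdh4 and Dscam results was not tested. Leaving out WT library 1 left 4 called member peaks, 3 higher and 1 lower, and leaving out WT library 2 left 2, both higher, and no gene called on summed tags. The Csmd3 call on summed tags was lost without either WT library (adjusted p = 0.32 and 0.471, limma), as was the Cdh4 call (0.484 and 0.535), the Dscam call was lost without WT library 2 (0.991), and the Csmd3 intron 3 peak was not called without WT library 2. Calls fell over the whole table as well without either WT library. In-peak scaling called 16 member peaks, 18.8% of them higher, in place of 10 with 30.0% higher. The whole table then moved from 4631 higher and 2134 lower to 5103 and 9419.

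Member peaks were mostly private to a sort. Of the 234 member peaks in NeuN+ nuclei, 13.7% overlapped an Olig2+ peak by at least 1 base, against 31.7% of all NeuN+ peaks, and of the 100 in Olig2+ nuclei, 33.0% overlapped a NeuN+ peak, against 41.3% of all. Of the microglial member peaks, 16% overlapped a NeuN+ peak, against 32.9% of all. With a reciprocal overlap of at least 50%, 29 member peaks were shared between NeuN+ and Olig2+ nuclei. In WT, 21 of the 29 differed between these sorts, 13 higher and 8 lower in Olig2+ nuclei, where 56.2% of all 29576 shared peaks differed, 33.7% higher and 22.5% lower. The 2 with the smallest p were in Csmd3 intron 1, at chr15:48790545-48790777, with 8.50 and 15.8 in NeuN+ and 141 and 153 in Olig2+ nuclei (log2 difference 3.55), and in Nlgn1, at chr3:25903206-25903426, with 13.6 and 21.5 against 110.0 and 121 (log2 difference 2.68). Between sorts the labels give no shared library, and fixation and cell type cannot be told apart in comparisons with microglia.

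At start sites the WT levels went both ways between these sorts. The Csmd1 start-site peak gave 87.8 and 77.9 in NeuN+ and 9.34 and 13.3 in Olig2+ WT nuclei (log2 difference -2.78, SE 0.22, adjusted p = 2.66e-13, limma). The Nrxn3 internal promoter gave 86.1 and 76.2 against 12.5 and 13.8 (log2 difference -2.54, SE 0.21, adjusted p = 1.8e-12, limma), and the Cdh4 start site 44.8 and 42.9 against 13.5 and 5.62 (log2 difference -2.19). The Dscam promoter peak at chr16:97171597-97171827 was higher in Olig2+ nuclei, with 15.3 and 19.2 in NeuN+ and 50.8 and 37.8 in Olig2+ nuclei (log2 difference 1.31, SE 0.23, adjusted p = 6.55e-06, limma). Tags were also summed over all peaks of a gene in its own table, and so over different peaks. Csmd3, Lrp1b and Nlgn1 then had more WT signal in both Olig2+ libraries than in either NeuN+ library, for example 529 and 551 against 122 and 132 for Csmd3. Csmd1, Nrxn3, Cntnap2 and Cdh4 had less, for example 111 and 115.6 against 652.6 and 629.7 for Csmd1. Cntnap5a had no Olig2+ peak, and the Dscam values overlapped. None of these differences in summed tags was tested.

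The genotype effect differed between NeuN+ and Olig2+ nuclei for 7 of the 29 shared member peaks, 4 with a higher change in Olig2+ nuclei and 3 with a lower one, where 35% of all shared peaks were called, 31.7% higher and 3.29% lower. The directions moved with the scaling: in-peak scaling gave 2 higher and 10 lower (8.53% and 12.3% of all shared peaks), median-of-ratios 2 and 8, quantile 2 and 6 and edgeR 2 and 7. At the Nlgn1 intron 4 peak chr3:25773553-25773758, NeuN+ nuclei gave 7.36 and 5.08 in WT and 12.6 and 11.4 in SgshKO, and Olig2+ nuclei gave 8.30 and 5.62 against 0.00 and 0.66. The difference of the 2 changes was -3.47 (SE 0.57, adjusted p = 1.1e-05, limma over 8 libraries). At the Csmd1 start site, where NeuN+ nuclei fell, Olig2+ nuclei gave 9.34 and 13.3 in WT and 22.1 and 17.3 in SgshKO, and the difference was 1.605 (SE 0.31, adjusted p = 0.000102, limma).

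**Figure D5:**
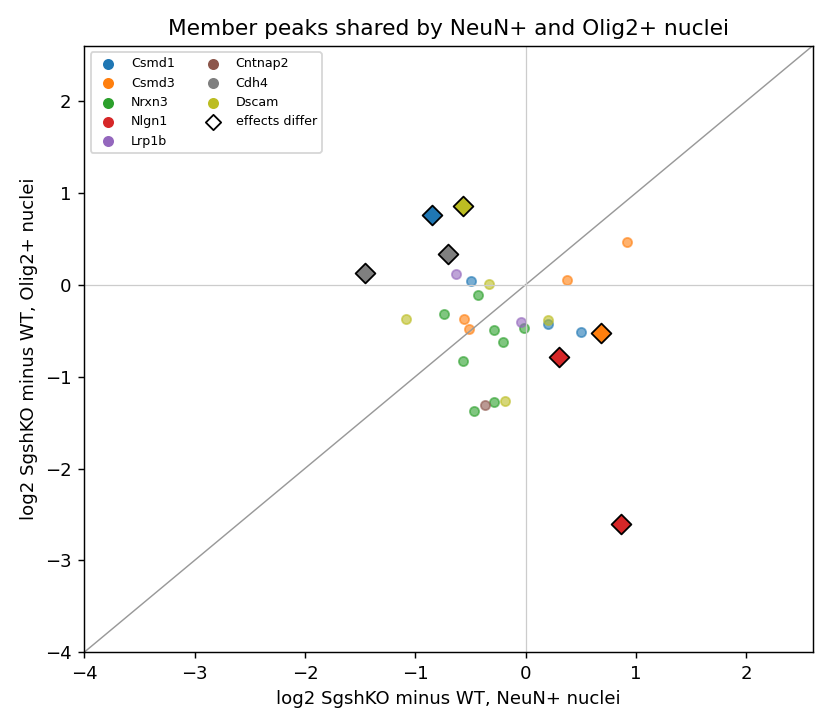
Change in NeuN+ nuclei (horizontal axis) against change in Olig2+ nuclei (vertical axis), both log2 SgshKO minus WT, for the 29 member peaks shared by the 2 tables; colours are genes, diamonds are the 7 peaks whose changes differed between the sorts, and the line marks equal change. The Nlgn1 intron 4 peak lies farthest below the line, with a difference of -3.47.

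On summed tags, a comparison added after the data were seen, the change in Olig2+ nuclei was below that in NeuN+ nuclei for 5 of the 8 genes with peaks in both, and above it for Dscam. Each sum is over the gene's peaks in its own sort, and so mostly over different regions. Nrxn3 had 60 peaks in NeuN+ and 23 in Olig2+ nuclei, of which 8 overlapped, and Cntnap2 had 25 and 6, of which 1 overlapped. The difference of the log2 changes was -0.95 for Nrxn3 (SE 0.08, adjusted p = 3.35e-09), -0.88 for Cntnap2 (SE 0.11, adjusted p = 5.78e-07), -0.81 for Nlgn1 (SE 0.10, adjusted p = 1.06e-06) and -0.62 for Csmd3 (SE 0.11, adjusted p = 4.38e-05), all limma. Over all 15396 genes the median difference was 0.30 and 49.9% were called, 40.7% higher and 9.24% lower. With in-peak scaling 20.3% were higher and 20.5% lower, and 6 of the 8 members were lower and none higher. These 4 calls held without any 1 of the 8 libraries and under in-peak scaling and quantile normalization. The other 2 were smaller: Csmd1 at -0.27 (adjusted p = 0.038, limma) was lost without NeuN+ WT library 1 (0.064) or 2 (0.117), NeuN+ SgshKO library 1 (0.0604) or 2 (0.105), Olig2+ WT library 2 (0.102) or Olig2+ SgshKO library 1 (0.148). Dscam at 0.25 (adjusted p = 0.0348, limma) turned to -0.05 with in-peak scaling and -0.17 with quantile normalization, and was lost without NeuN+ WT library 2 (0.156), NeuN+ SgshKO library 2 (0.0893), Olig2+ WT library 1 (0.0744) or 2 (0.0903) or Olig2+ SgshKO library 2 (0.234). Lrp1b (-0.27) and Cdh4 (0.32) did not pass the test.

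With microglia, 3 member peaks were shared with each of the other sorts. In WT, 1 of the 3 was higher in NeuN+ nuclei than in microglia, where 61.9% of all shared peaks differed, 14.6% higher and 47.3% lower in NeuN+ nuclei. All 3 differed between microglia and Olig2+ nuclei, 1 higher and 2 lower in Olig2+ nuclei, where 64.6% of all differed, 20.8% higher and 43.7% lower. The genotype effect differed at 1 peak in each pair. In the NeuN+ pair it was a lower one, where 29.3% of all shared peaks were called, 1.6% higher and 27.7% lower, and in the Olig2+ pair a higher one, where 15.2% were called, 2.9% higher and 12.3% lower. At Cdh4 intron 2, chr2:179648931-179649171, microglia gave 6.91 and 4.24 in WT and 14.7 and 10.2 in SgshKO and NeuN+ nuclei 19.3 and 15.2 against 12.6 and 12.7 (difference -1.46, adjusted p = 0.0469, limma). No shared member peak of that pair was called under the 3 scalings, edgeR or DESeq2, or without microglial WT library 2, microglial SgshKO library 1 or any 1 of the 4 NeuN+ libraries. At Csmd3 intron 1, chr15:48789915-48790123, microglia fell from 51.0 and 52.5 to 14.7 and 12.1, and Olig2+ nuclei gave 24.9 and 22.5 in WT and 14.1 and 25.3 in SgshKO (difference 1.57, adjusted p = 0.024, limma). In that pair none was called with DESeq2 or any overlap, or without either microglial WT library, either Olig2+ WT library or Olig2+ SgshKO library 2.

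Related adhesion genes, 76 genes in 5 lists, did not move as 1 group in NeuN+ nuclei: of 75 with a peak, 17 rose and 28 fell on summed tags, where 10.5% of all genes rose and 48.7% fell. Cadherins rose most often, 7 of 13 with 1 fall (median 0.37), for example the neuronal cadherin Cdh12, from 69.1 and 74.0 to 126 and 124 (log2 change 0.79), and Cdh13, from 318 and 328 to 456 and 419 (log2 change 0.44). Among 21 neurexin and neuroligin relatives and partners, 4 rose and 11 fell (median -0.20), including Dlg4, the postsynaptic scaffold that binds neuroligins (log2 change -0.70), and the latrophilin gene Adgrl1 (-0.43). Of 11 contactin and contactin-associated genes 3 rose and 5 fell, with Cntn4 higher (0.71) and Cntn2 lower (-0.43), and of 20 immunoglobulin-type adhesion genes 3 rose and 4 fell, with Lsamp higher (0.37) and Dscaml1, on 1 peak, lower (-1.63). None of 10 relatives of the CSMD genes and Lrp1b rose and 7 fell (median -0.48), with Lrp8 at -0.64. In Olig2+ nuclei 13 of 64 genes of these lists rose and 20 fell, beside 15.9% and 18.9% of all genes, and in microglia 4 of 34 rose and 2 fell, beside 8.08% and 1.05%.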

How the data were processed

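Peak tables came from ATAC-seq of sorted forebrain microglia, NeuN+ nuclei and Olig2+ nuclei. Per the submitters' processing notes, Bowtie2, HOMER and the mm10 build were used, with no roles or versions given. The deposited signal values are tags per peak scaled by the authors to 10000000 tags per library, per the file headers. Multiplying them by the totals in the headers gave whole reads for 100% of values (tolerance 0.01), and these recovered counts entered the edgeR and DESeq2 alternatives. On them edgeR called 9382 higher and 4820 lower peaks in microglia, 17045 and 12416 in NeuN+ and 9566 and 8294 in Olig2+ nuclei. The deposited peak score was not used in any test. No label or header states the peak-calling settings or the libraries used for it. A peak with almost no reads in a genotype can hardly have been found from that genotype's libraries. The direction and p-value of its change then follow in part from how peaks were selected.

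The 9 genes, the related lists and the tests were chosen with earlier results of these data known. Here log2(normalized tags + 1) of the deposited values was fitted with limma 3.58.1 (trend, R 4.3.3), each table on its own 4 libraries, or on the 8 libraries of 2 sorts for peaks with 50% reciprocal overlap. Benjamini-Hochberg adjustment ran over each whole table. Gene values are sums over peaks with that nearest gene, and no peak was filtered. Because the nearest start site decides membership, peaks inside a member nearer to another gene were counted apart. Peaks named are, per gene and table, the one nearest the start site within 1000 bases and the called one with the smallest p in each direction, the 3 strongest per table, 2 per pair of sorts, and at most 2 genes per related list. Leaving out a library leaves 1 in its group, whose spread is assumed to be like the others'. Alternatives were pseudocounts of 0.5 and 5, omission of the lowest 25% of peaks, 3 scalings, edgeR 4.0.16, DESeq2 1.42.0, a replicate block, other definitions of membership and each library left out. The comparison of summed tags between sorts, the classes of gene length and the division by signal were added after the data were seen. On simulated tables with 100 peaks changed 4-fold among 91770, 107627 and 82577, the test called 53%, 64% and 83% of them in microglia, NeuN+ and Olig2+ nuclei, and 4%, 15% and 41% at 2-fold. Only 200 peaks were changed per simulated table, while 6765, 32105 and 16370 peaks were called in the data. The adjustment depends on how many peaks change, so these rates need not hold for the data. Results for some genes are not reported here.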

Additional observations from a re-analysis of the deposited data

Results flagged for a closer look

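Each value here is the log2 genotype change (SgshKO minus WT) in 1 sort minus that in another, and each was singled out because a test of that difference passed at an adjusted p under 0.05 (limma). Groups of 2 libraries are too small for a check of single samples. For summed tags, Olig2+ minus NeuN+ nuclei, the differences were -0.953 for Nrxn3, -0.885 for Cntnap2, -0.812 for Nlgn1, -0.618 for Csmd3, -0.273 for Csmd1 and 0.254 for Dscam. These sums are over each sort's own peaks, which mostly differ. The median over all genes was 0.30, so the Dscam value is below it and turned negative with in-peak scaling.

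Among peaks shared by NeuN+ and Olig2+ nuclei, the differences were -3.47 and -1.09 at the Nlgn1 intron 4 peaks that start at 25773553 and 25903206, -1.21 at the Csmd3 intron 2 peak that starts at 48654544, and 1.6 at the Csmd1 start site. They were 1.43 at the Dscam promoter, 1.04 at the Cdh4 start site and 1.58 at the Cdh4 intron 2 peak that starts at 179537532. The Dscam promoter gave 15.3 and 19.2 normalized tags in WT and 13.3 and 9.52 in SgshKO NeuN+ nuclei, and 50.8 and 37.8 against 79.9 and 81.1 in Olig2+ nuclei. For NeuN+ nuclei minus microglia the difference was -1.46 at Cdh4 intron 2, and for Olig2+ nuclei minus microglia it was 1.57 at Csmd3 intron 1.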

How the results depend on the processing

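On summed tags, 175 of 206 single-gene values under other settings kept their direction and side of the threshold, and 65 of 84 with a library left out. For named peaks it was 386 of 437 and 121 of 200. With the lowest 25% of peaks left out, 11 microglial and 70 Olig2+ member peaks remained. Of these 5 and 24 were called, in place of 10 of 25 and 38 of 100. Over all remaining peaks, 5.906% were then higher and 1.514% lower in microglia, and 9.17% and 12.37% in Olig2+ nuclei. In-peak scaling called 16 of the 25 microglial member peaks. DESeq2 called 5, 21 and 8 member peaks in microglia, NeuN+ and Olig2+ nuclei, and 3 Olig2+ genes, as did distal peaks alone. Over the whole tables it called 4.867%, 2.481% and 2.585% of peaks higher and 0.498%, 2.071% and 1.68% lower. The genotype effect between NeuN+ and Olig2+ nuclei was called at 12 peaks with in-peak scaling and 4 with DESeq2. Of 3 peaks shared by microglia and NeuN+ nuclei, the WT level differed at 0 without the lowest 25%, 2 with in-peak scaling, DESeq2 or any overlap, and 3 with median-of-ratios scaling, quantile normalization or edgeR. Their genotype effect was called at 2 with any overlap and 0 under those other settings, and for microglia and Olig2+ nuclei at 0 with DESeq2 or any overlap. The causes were not tested.

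With single libraries left out, called member peaks ranged from 2 to 17 in microglia, 0 to 46 in NeuN+ and 14 to 37 in Olig2+ nuclei, and called genes from 0 to 4, 6 to 7 and 3 to 4. Between NeuN+ and Olig2+ nuclei they ranged from 15 to 22 (WT), 5 to 8 (genotype effect) and 4 to 6 genes; between microglia and NeuN+ nuclei from 1 to 2 and 0 to 2; and between microglia and Olig2+ nuclei 3 and 0 to 1.

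Signs turned as follows, the cause not tested. In NeuN+ nuclei Cdh4 was 0.154, 0.152, 0.191, 0.152 and 0.154 and Dscam 0.248, 0.245, 0.275, 0.244 and 0.244 under in-peak, median-of-ratios and quantile scaling, edgeR and DESeq2. Dscam was 0.024 on distal peaks and -0.116 to 0.0142 with a library left out. The Nrxn3 internal promoter was 0.032 with quantile normalization. Csmd1 in Olig2+ nuclei was -0.125 on distal peaks and -0.0652 to 0.0944 with a library left out (-0.0143 without WT library 1), and Lrp1b -0.196 to 0.0108. The microglial start sites of Csmd3 and Cdh4 were -0.0936 and -0.0175 with in-peak scaling, and ranged from -0.247 to 0.453 and -0.11 to 0.48 with a library left out. In Olig2+ nuclei, start sites then ranged from -0.254 to 0.351 (Csmd3, -0.215 without SgshKO library 2), -0.302 to 0.084 (Nrxn3), -0.207 to 0.434 (Lrp1b), -0.229 to 0.901 (Cdh4) and -0.217 to 0.388 (Dscam), and the Lrp1b intron 1 peak from -0.288 to 0.0151. No value whose sign had turned passed the test except Dscam in NeuN+ nuclei under the scalings and edgeR.

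With the replicate number as a block, 13, 90 and 40 member peaks and 4, 6 and 5 genes were called in microglia, NeuN+ and Olig2+ nuclei, and 9 peaks for the genotype effect between NeuN+ and Olig2+ nuclei. Deviations of same-numbered libraries correlated at 0.042, 0.0036 and 0.00069, so little deviation went with the number. Whether same-numbered libraries share a batch cannot be told from this or from the labels. Low read counts, with a median of 12 to 27 per member peak and library, limit what single peaks can show.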
